A study of Mus musculus with 2 samples.

Results

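The cells described here are fibroblasts of the newborn mouse eye cup that carried transcripts of at least 2 of 6 genes, Pi16 and Dpt among them. Each transcript was counted once by its unique molecular identifier (UMI). Members were chosen by these measured counts, so the values of the genes in the rule describe the choice and test nothing. A droplet barcode was a member if it held at least 200 genes, at most 15% mitochondrial UMIs and at least 0.5% of its UMIs from Col1a1, Col1a2 and Col3a1, the chains of the main fibrillar collagens. It also had to hold UMIs of at least 2 of the 6 markers Pi16, Dpt, Clec3b, Tnxb, Mfap5 and Ly6a. It could hold at most 1 UMI of the mural cell genes Rgs5, Kcnj8 and Abcc9, and 0 UMIs of the endothelial genes Pecam1 and Cdh5 and of the leukocyte gene Ptprc. By this rule 1181 of 26527 barcodes were members, 849 of 14305 in the control library and 332 of 12222 in the mutant library.

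The control library came from Myrf fl/fl pups and the mutant library from Rx>cre Myrf fl/fl pups, both at postnatal day 0, and each was a pool of 3 eye cups without cornea, lens and optic nerve. Both genotypes carried the floxed Myrf alleles, and only the mutants carried Rx>cre, a transgene that makes cre recombinase in the early eye field, the source of the retina and its pigment epithelium. Animals within a pool could not be told apart. With 1 library per genotype there was no test of any difference, and intervals given here are 95% intervals of counting error alone.

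Fibroblasts build the collagen and elastic fibre networks around organs. A class of them marked by Pi16 and Dpt lies in the outer sheath of vessels, in fascia and in other loose connective tissue, and such cells have been described in many adult tissues as a fibroblast pool from which more specialised fibroblasts can arise. Around the eye, connective tissue comes from periocular mesenchyme, which is of neural crest and mesodermal origin and is not part of the eye field.

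Myrf itself, the gene targeted in the mutants, was near the detection limit in members, with 11 UMIs among control and 4 UMIs among mutant cells. Scaled to counts per 1000000 UMIs of a class (CPM), these are 1.47 and 0.98. In barcodes under the collagen minimum, which hold the retinal and pigment cells, Myrf stood at 15.04 CPM (control) and 1.82 CPM (mutant). The kept barcodes of the libraries held 78731338 and 75921519 UMIs. Members were deep, with medians of 8881 UMIs and 2867 genes in the control and 11806 UMIs and 3400.5 genes in the mutant. The sexes were unevenly pooled. Of the kept barcodes, 1031 in the control held Xist but no Y-linked UMI and 7134 the reverse, against 8392 and 1625 in the mutant. Among control members 175 held Xist but no Y-linked UMI and 373 the reverse, against 182 and 69 among mutant members. There were 59 barcode sequences that occurred in both libraries. Of these, 1 was a member in the control, 5 were members in the mutant and 0 were members in both.

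The markers of the rule were found in unequal shares of members. Mfap5, a microfibril protein, was found in 95.2% of control and 97.3% of mutant members. Pi16, a secreted peptidase inhibitor, was found in 67.4% and 66.9%, and Tnxb, the matrix glycoprotein tenascin X, in 66.5% and 72.9%. Clec3b, which encodes the plasminogen-binding protein tetranectin, was found in 46.3% and 59.9%. Dpt, which encodes the collagen-binding protein dermatopontin, was found in 38.5% and 44.0%, and the surface antigen gene Ly6a in 24.3% and 33.4%. Members with UMIs of both Pi16 and Dpt numbered 221 in the control (26.0%) and 93 in the mutant (28.0%), while 171 and 57 had neither. The part of the rule that asks for any 2 markers therefore takes in cells without either gene of the name.

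Shares of this kind depend on depth, so each barcode was also thinned at random to 1000 UMIs, which left out 37 control and 8 mutant members. After thinning, Mfap5 was found in 74.3% of control and 73.1% of mutant members, Pi16 in 40.9% and 32.4%, Tnxb in 33.1% and 31.8%, Clec3b in 23.2% and 22.2%, Dpt in 14.2% and 11.4%, and Ly6a in 10.8% and 14.2%. For Pi16 the intervals were 37.5 to 44.4% in the control and 27.3 to 37.8% in the mutant, which overlap slightly. Thinned to 2000 UMIs the order of Pi16 turned, to 42.3% in the control and 43.5% in the mutant, as did those of Clec3b and Tnxb, so no order is read from these shares. Retinal progenitors, which should lack these genes, set the background of free RNA. Barcodes with at least 3 of 8 progenitor genes had Pi16 in 0.595% of control and 0.232% of mutant cells after thinning, and Mfap5 in 1.12% and 0.355%. The collagens of the rule had a higher background in the control. Col1a1 was in 41.7% of control and 7.49% of mutant progenitors after thinning, at 484 and 75.8 CPM. The 3 collagens took a median of 0.111% and 0.0109% of a progenitor's UMIs. Barcodes at or above the minimum of 0.5% had been left out of the progenitors. These values therefore could not reach it and do not show how often free collagen did. The median depths of the progenitors were 4590 and 4982 UMIs. Before thinning those background shares were 2.39% and 1.43% for Pi16 and 4.02% and 1.63% for Mfap5.

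**Figure D1:**
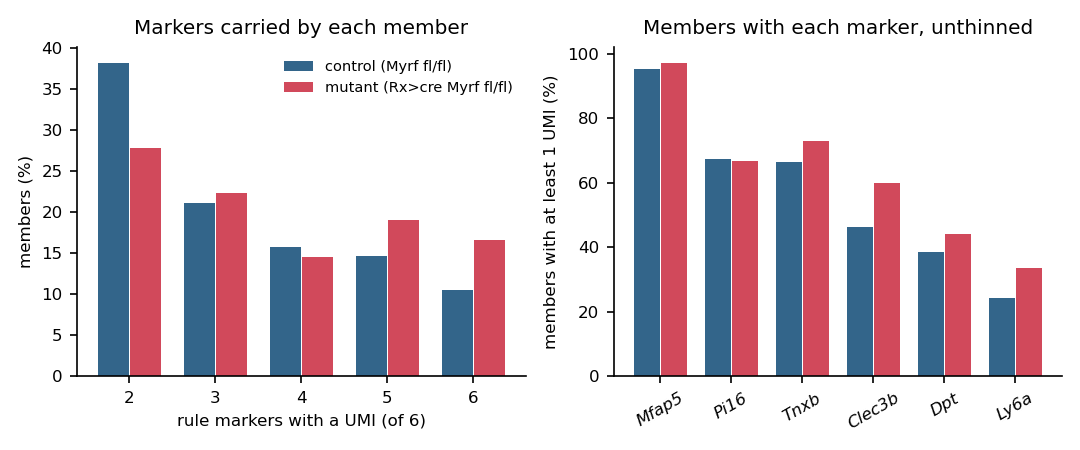
Bars show the percent of control members (blue) and mutant members (red) by the number of rule markers with a UMI (left) and by each marker without thinning (right). Mfap5 was found in 95.2% and 97.3% of members and Ly6a in 24.3% and 33.4%, so the markers differ widely in how many members carry them.

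The summed levels of the markers were alike in both libraries. Pi16 stood at 961 CPM in control and 967 CPM in mutant members, Mfap5 at 2406 and 2242 CPM, Tnxb at 447 and 419 CPM and Dpt at 139 and 149 CPM. Clec3b and Ly6a were somewhat higher in the mutant, at 292 against 375 CPM and 171 against 238 CPM. These counts come from transcript ends and were not divided by length, so levels are compared between libraries and classes but not between genes. Of members with a Ly6a UMI, 97.6% in the control and all 111 in the mutant also held Mfap5, 87.4% and 91.9% held Pi16, 83.5% and 90.1% Tnxb, and 71.4% and 88.3% Clec3b. Since the rule asks for 2 markers, every such cell had to hold another one. Of members with Dpt, 67.6% and 63.7% had Pi16, close to the share of Pi16 in all members.

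On GRCm38, in GENCODE M21 coordinates, Pi16 lies at chr17:29317680-29330593 and Tnxb at chr17:34670535-34719815, both on the plus strand. Dpt lies at chr1:164796644-164824266, Clec3b at chr9:123150946-123157432 and Mfap5 at chr6:122505845-122529290, all on the plus strand, and Ly6a at chr15:74994877-74998031 on the minus strand. The RefSeq table used here (GRCm38.p6) held promoter windows for Pi16, Dpt and Tnxb. They are shown because these genes are markers of the rule and because Klf4, whose protein is known to bind CACCC boxes, was higher in members, as given further on. Each sequence is the 250 bases before the RefSeq start on the plus strand, at chr17:29318632-29318881, chr1:164796413-164796662 and chr17:34670285-34670534. The annotations differ on the start of Pi16: its whole window lies inside the GENCODE gene, downstream of the GENCODE start, and the end of the Dpt window overlaps the GENCODE gene as well. Capitals mark CACCC or its reverse complement GGGTG.
Pi16: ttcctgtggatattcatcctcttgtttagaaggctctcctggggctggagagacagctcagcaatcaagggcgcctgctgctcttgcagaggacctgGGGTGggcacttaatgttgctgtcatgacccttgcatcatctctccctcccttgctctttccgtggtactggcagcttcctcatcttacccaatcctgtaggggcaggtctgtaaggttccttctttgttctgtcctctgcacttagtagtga
Dpt: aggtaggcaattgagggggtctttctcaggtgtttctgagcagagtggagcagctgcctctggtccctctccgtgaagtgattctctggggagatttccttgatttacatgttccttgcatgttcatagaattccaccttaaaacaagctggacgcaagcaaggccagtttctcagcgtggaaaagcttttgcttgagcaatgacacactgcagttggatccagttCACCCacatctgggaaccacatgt
Tnxb: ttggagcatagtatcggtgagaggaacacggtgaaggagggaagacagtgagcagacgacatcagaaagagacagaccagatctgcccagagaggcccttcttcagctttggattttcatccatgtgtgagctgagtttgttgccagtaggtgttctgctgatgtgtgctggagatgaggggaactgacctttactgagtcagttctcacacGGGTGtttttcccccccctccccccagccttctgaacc
Each window held 1 match, at 153 bases before the start in Pi16, 24 in Dpt and 38 in Tnxb. Of 32817 promoter windows of the same length, 52.0% held a match on either strand, so a match in all 3 is a description and not a site. Neither CCCNNGGG, the core read by EBF proteins (11.8% of windows), nor the TATA box TATAAA (12.4%) was matched on either strand in the 3 windows.

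Members carried from 2 to 6 markers, and what else they expressed moved with that number. In the control 324 members held exactly 2 markers, 179 held 3 and 346 held 4 or more. In the mutant these numbers were 92, 74 and 166. At the edge of the rule, control cells with exactly 2 markers had 132 CPM of Pi16 and 936 CPM of Mfap5, and control cells with 1 marker, just outside it, had 27.2 and 359 CPM. In the mutant the values were 69.7 and 602 CPM inside and 7.02 and 330 CPM outside. Both genes were lower just outside the rule than just inside it, and neither was at 0 there.

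Genes linked elsewhere to adventitial and fascia fibroblasts, a list of 24 that the rule did not use, were higher with more markers. This list and the others were chosen with earlier results of these data known, so their levels describe the members and test nothing. Their summed level was 850 CPM in control and 931 CPM in mutant collagen-expressing cells with 0 markers and at least 2000 UMIs. It was 2320 and 2160 CPM with 2 markers, 3194 and 2433 CPM with 3, and 5488 and 5431 CPM with 4 or more. Elastic fibre genes followed, from 4440 and 5839 CPM at 0 markers to 11221 and 9996 CPM at 4 or more, although in the mutant the level with 3 markers (6966 CPM) lay below that with 2 (7561 CPM). The fat lineage list, which is led by the preadipocyte gene Dlk1, went from 1682 and 1850 CPM to 4619 and 5161 CPM. Not every gene of this list took part in the sum. Pparg had 2 UMIs in control members and 0 in mutant members, and Apoe was lower in members, as given further on. The sum is therefore not read as a fat cell program.

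Genes of dense tissue went the other way. Tendon and sclera genes stood at 2224 CPM in control and 3249 CPM in mutant cells with 0 markers, at 2113 and 2500 CPM with 2 markers, and at 366 and 303 CPM with 4 or more. A large part of this sum was Kera, a gene of corneal stroma that is on the list, at 812 and 1697 CPM with 0 markers. Scx, a tendon gene, stood at 146 and 126 CPM there. Cartilage and bone genes stood at 752 and 1147 CPM with 0 markers and at 110 and 113 CPM with 4 or more. The 3 collagens of the rule were higher at 2 markers, 76670 and 81460 CPM, than at 4 or more, 35888 and 33593 CPM. At 0 markers Col1a1 stood at 25145 and 36628 CPM, Col1a2 at 16352 and 25242 CPM and Col3a1 at 5971 and 8013 CPM. Together these lay below the level at 2 markers in both libraries, so the collagens did not fall throughout. Depth moved with marker number in the control, where medians were 5371, 7195 and 10250.5 UMIs for 2, 3 and 4 or more markers. In the mutant these medians were 11958, 11690.5 and 11748.5 UMIs, which are close to each other. The part of depth in the gradient was not tested. The marker number is the rule's own measure, and the gradient is a description.

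**Figure D2:**
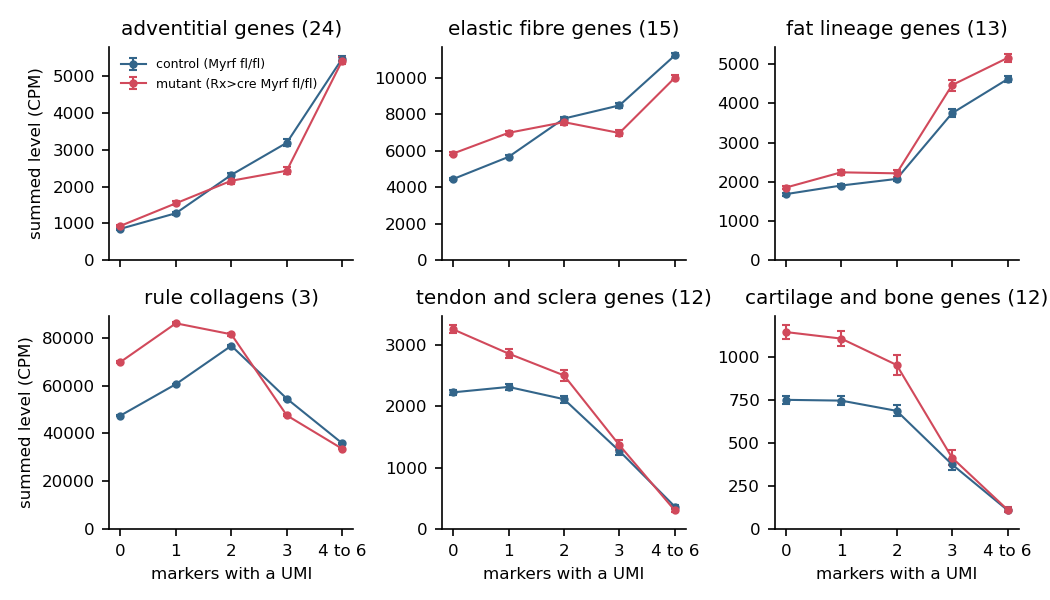
Summed level of 6 gene lists in CPM (vertical axis, linear, from 0) against the number of rule markers with a UMI in collagen-expressing cells, where cells with 0 markers had at least 2000 UMIs; bars are exact Poisson intervals. Adventitial genes reach 5488 CPM (control) and 5431 CPM (mutant) at 4 to 6 markers, while tendon and sclera genes drop to 366 and 303 CPM. The tendon and sclera list includes the corneal stroma gene Kera.

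Members were then set against collagen-expressing cells that passed every other part of the rule but held 0 of the 6 markers, 1932 in the control and 306 in the mutant. The rule made this contrast, so the values describe the members and test nothing. Log2 ratios here have 1 CPM added to each side. Of 11450 genes with at least 10 UMIs expected in each class, 404 (3.53%) were at least 2-fold higher in members in both libraries and 264 (2.31%) at least 2-fold lower. The median over all genes was -0.16 in the control and -0.03 in the mutant. The control cells with 0 markers were shallow, with a median of 1405 UMIs against 10088 in the mutant. With those of at least 2000 UMIs, 722 and 261 cells, the counts were 415 (3.64%) and 283 (2.48%) of 11395 genes.

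Of the adventitial list, 23 genes were measured in this contrast, 20 were at least 2-fold higher in both libraries and 0 at least 2-fold lower in both, with medians of 2.43 and 2.55. Cd34, a sialomucin of vessels and fibroblast progenitors, stood at 471 and 486 CPM in control and mutant members against 32.6 and 28.1 CPM at 0 markers. Thinned, Cd34 was detected in 31.8% and 33.0% of members, in 1.94% and 3.83% of 0-marker cells of at least 2000 UMIs and in 0.692% and 0.428% of progenitors. Without thinning, 72.9% and 84.6% of members held it. Adgrd1, an adhesion receptor, had 17.1 and 21.4 CPM in members and 0.161 and 0 CPM at 0 markers. Cd55, a complement regulator, had 64.3 and 63.9 CPM against 3.54 and 1.31 CPM, and Ebf2, a transcription factor of the early B-cell factor family, 36.7 and 47.7 CPM against 0.965 and 0.327 CPM. The 3 genes not past 2-fold in both libraries were Nt5e and Opcml, with log2 ratios from -1.07 to -0.41, and Dpp4, an enzyme that marks such fibroblasts elsewhere, which at 11.7 and 13.8 CPM had ratios of 0.93 and 1.59.

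Among the 12 genes outside the rule named by the smaller of their ratios in both libraries, Nov stood first. Nov, also called Ccn3, encodes a matricellular protein and lies at chr15:54745702-54754039 on the plus strand. It had 225 CPM in control and 295 CPM in mutant members against 4.50 and 4.57 CPM at 0 markers, log2 ratios of 5.36 and 5.73. After thinning it was in 17.5% and 22.2% of members, against 0.139% and 1.15% of 0-marker cells of at least 2000 UMIs and 0.235% and 0.0979% of progenitors. Tppp3, a tubulin-binding protein found in tendon sheath progenitors, had 505 and 592 CPM against 22.0 and 12.7 CPM. Tek, the angiopoietin receptor usually read in endothelium, had 71.0 and 74.4 CPM against 2.41 and 1.96 CPM, ratios of 4.40 and 4.67. The endothelial genes Pecam1 and Cdh5 were at 0 in members by the rule, and the other endothelial genes were low, Kdr at 28.9 and 31.4 CPM and Cldn5 at 17.3 and 8.11 CPM. Nts, a neuropeptide gene, Emilin2, an elastic fibre glycoprotein gene, Col6a6 and Col5a3, minor collagen chains, and the surface antigen gene Ly6c1 made up most of the rest. Their ratios ran from 4.00 to 4.65 over both libraries, apart from Ly6c1 in the mutant. There Ly6c1 had 120 UMIs in members and 0 at 0 markers, at least 30-fold higher against a floor of 3 counts.

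Elastic fibre genes other than Mfap5 split in 2. Of 15 measured, 5 were at least 2-fold higher in members in both libraries and 0 lower. The shares over all genes were 3.53% higher and 2.31% lower. Fibrillin-1 (Fbn1), the backbone of microfibrils, had 1025 and 1113 CPM against 109 and 119 CPM, ratios of 3.22 in both. Elastin (Eln) had 2218 and 1754 CPM against 251 and 323 CPM, ratios of 3.14 and 2.44. Efemp1, a fibulin, had ratios of 3.37 and 4.25. Mfap2, another microfibril-associated gene, had ratios of 0.18 and -0.64. In the list of 16 other collagens, Col5a3 was at least 2-fold higher in both libraries and 0 were lower, which is near those shares. The abundant chains Col5a1, Col6a1 and Col12a1 had ratios from -0.87 to 0.46. Of 18 broad fibroblast genes, 3 were higher in both, Thy1 (3.82 and 4.55), Fbln2 and Fstl1, and 0 were lower. Dcn and Lum, proteoglycans of all fibroblasts, had ratios of 0.37 and -0.37 and of -0.43 and -1.01. Of 12 small leucine-rich proteoglycan genes, 3 were higher in both libraries, among them Aspn at 2.16 and 1.69.

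**Figure D3:**
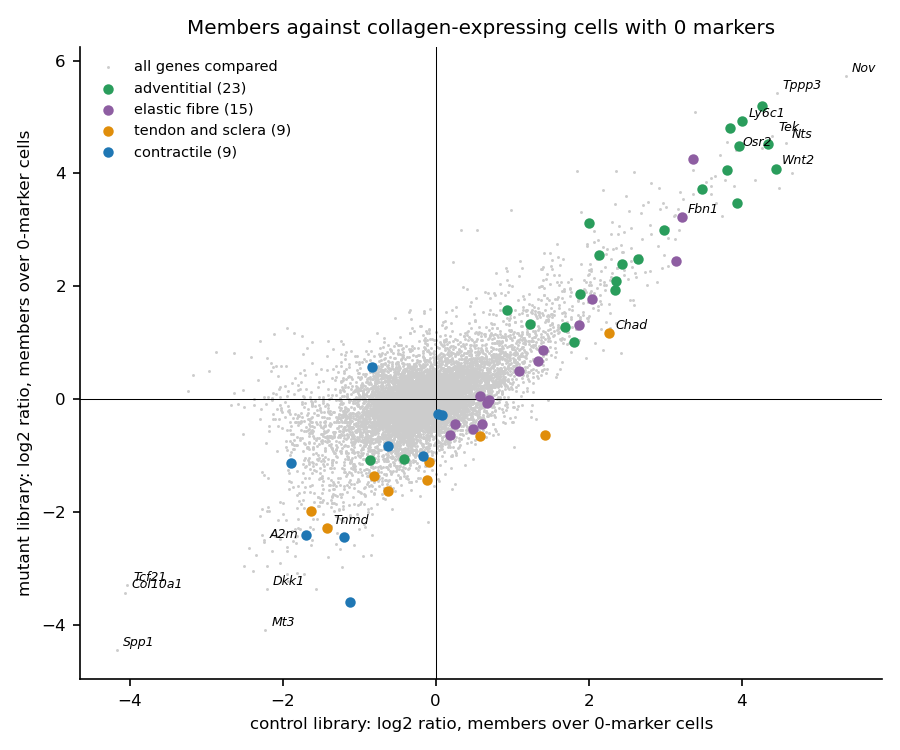
Each point is a gene; axes are log2 ratios of members over collagen-expressing cells with 0 markers in the control (horizontal) and mutant (vertical) library, with 1 CPM added to each side. The adventitial genes (green) lie mostly in the upper right, 20 of 23 past 2-fold in both libraries. Among genes outside the rule, Nov is farthest out by the smaller ratio, at 5.36 and 5.73.

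Ligands of the IGF, BMP and WNT pathways were among the genes higher in members. For all genes compared, 3.53% were at least 2-fold higher than at 0 markers in both libraries and 2.31% lower. Of 11 measured IGF system genes, 6 were higher by this measure and 1 was lower. The growth factor Igf2 had 296 and 275 CPM in control and mutant members against 56.6 and 54.2 CPM, and H19, the imprinted noncoding RNA beside it, had 3835 and 4115 CPM against 652 and 751 CPM. The binding proteins went both ways: Igfbp6 had ratios of 2.65 and 2.49 and Igfbp3 of 3.04 and 2.35, while Igfbp2 was lower at -1.55 and -2.13, from 3012 and 6289 CPM at 0 markers to 1025 and 1435 CPM. Of 25 BMP and TGF beta genes, 5 were higher in both and 0 lower. Bmp4 had 83.2 and 84.2 CPM against 20.4 and 11.8 CPM, and Bmp7 40.3 and 42.0 CPM against 9.32 and 7.84 CPM. The BMP targets Id1, Id2 and Id3 had ratios from -1.45 to -0.48, and none of them was 2-fold lower in both libraries. Of 18 WNT genes, 3 were higher and 3 lower. The ligand gene Wnt2, at chr6:17988940-18030585 on the minus strand, had 41.8 and 43.7 CPM against 0.965 and 1.63 CPM. Sfrp4, a secreted WNT modulator gene, had 12.5 CPM in members of both libraries against 0.643 and 0.653 CPM. The lower genes were Lef1, a nuclear factor of the pathway, Nkd2, a feedback inhibitor, and Rspo3, a secreted enhancer, with ratios from -2.44 to -1.29. Dkk1, a WNT inhibitor gene outside that list and among the genes named by size, had 3.35 and 5.40 CPM against 19.1 and 65.3 CPM.

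Transcription factors of mesenchyme separated members from other collagen-expressing cells in both directions. Of 35 measured, 10 were at least 2-fold higher in both libraries and 4 lower, beside 3.53% and 2.31% of all genes. Osr2, an odd-skipped zinc finger factor at chr15:35296098-35303305 on the plus strand, had 142 and 187 CPM against 8.36 and 7.84 CPM, ratios of 3.93 and 4.41. Its relative Osr1 had 77.3 and 63.4 CPM against 5.47 and 3.26 CPM. Klf4, a Krüppel-like factor, had 242 and 269 CPM against 24.9 and 22.2 CPM, and Tbx15, a T-box factor, 32.2 and 35.4 CPM against 3.22 and 2.29 CPM. On the lower side, Tfap2b, a neural crest factor, had 42.5 and 62.9 CPM against 121 and 202 CPM. Tfap2b is also on the list of retinal neuron genes, and the part of retinal RNA in this difference was not tested. The nuclear receptors Nr2f1 and Nr2f2 had ratios from -1.35 to -1.11. Tcf21, a factor of several fibroblast lineages, had 1 UMI in control members and 0 in mutant members against 109 and 27 UMIs at 0 markers. The periocular factor Foxc1 was present in members at 49.97 and 54.0 CPM against 67.5 and 82.6 CPM, ratios of -0.43 and -0.60.

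The 12 genes outside the rule named in the same way on the lower side were Spp1, Col10a1, Tcf21, Aldh3a1, Art4, Cldn10, Coch, Emb, A2m, Ccdc3, Mt3 and Dkk1. Spp1, which encodes the bone matrix protein osteopontin, had 26.8 and 25.3 CPM in members against 498 and 577 CPM, ratios of -4.17 and -4.46. Col10a1, a collagen of hypertrophic cartilage, had a ratio of -4.06 in the control. In the mutant it had 0 UMIs in members against 30 at 0 markers, so no exact ratio is given. Of 7 cartilage and bone genes measured, 0 were higher and 3 lower, where 3.53% of all genes were higher and 2.31% lower. Of 9 contractile genes, 0 were higher and 4 lower, among them Acta2 at -1.20 and -2.44 and Tagln at -1.70 and -2.41. Of 9 tendon and sclera genes, Scx (-1.63 and -1.99) and Tnmd (-1.42 and -2.29) were lower and Chad was higher (2.27 and 1.17). In the fat lineage list, Dlk1 had 2655 and 3362 CPM against 396 and 708 CPM and Fabp4 had ratios of 2.36 and 4.04, while Apoe was lower at -1.72 and -1.65. A2m, a protease inhibitor, had 132 and 260 CPM against 632 and 1512 CPM.

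Members with a Pi16 UMI were also set against those without. This split was chosen after values had been seen, and it uses a gene of the rule, so members without Pi16 had to hold 2 of the other 5 markers and the ratios of those markers are shaped by the rule. A cell without a Pi16 UMI may still express the gene. The split was limited to members of at least 5000 UMIs so that median depths were close. Other features of depth were not matched. In the control 336 members had Pi16 and 179 did not, with median depths of 12691.5 and 12264 UMIs. In the mutant these were 199 and 96 members, with 12486 and 12632 UMIs. Of 9364 genes compared, 143 were at least 2-fold higher with Pi16 in both libraries and 65 were lower. Ly6a had 257 CPM with Pi16 and 8.55 CPM without it in the control, and 348 and 7.56 CPM in the mutant, ratios of 4.76 and 5.35. The calcium-binding protein gene Efhd1, the WNT ligand genes Wnt10b and Wnt2, the surface glycoprotein gene Thy1 and Tek were also higher with Pi16, with log2 ratios from 2.54 to 5.10 over both libraries. Fbn1 had 1409 CPM with Pi16 and 331 CPM without in the control, and 1528 and 272 CPM in the mutant. Of the remaining markers, Mfap5 had ratios of 1.45 and 1.75, Clec3b 1.63 and 1.43 and Tnxb 1.23 and 1.37, while Dpt had 0.46 and 0.88.

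Other genes were higher in members without a Pi16 UMI. A2m had 352 CPM without Pi16 and 20.5 CPM with it in the control, and 793 and 2.63 CPM in the mutant. Keratocan (Kera), a proteoglycan of corneal stroma, had 896 and 173 CPM in the control and 1613 and 190 CPM in the mutant. Igfbp2 had 2446 and 373 CPM in the control and 3759 and 314 CPM in the mutant. Col9a1, Matn4, Spon1, Pou3f3 and Aldh3a1 were likewise at least 2-fold lower with Pi16 in both libraries. Dlk1 and Osr2, in contrast, differed little by Pi16, with ratios of 0.07 and 0.05 for Dlk1 and 0.10 and -0.31 for Osr2. Kera was lower with Pi16 but not absent, with 768 of its UMIs in control members with Pi16 and 2096 in those without, and 507 and 2134 in the mutant.

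The share of members in the eye cup differed between the libraries. Members made up 6.01% of kept barcodes in the control (interval 5.62 to 6.41%) and 2.76% in the mutant (2.47 to 3.07%), a 2.18-fold lower share, log2 ratio -1.12 (-1.31 to -0.94). Collagen-expressing cells as a whole were 23.6% and 6.86% of kept barcodes, log2 ratio -1.78. Members therefore made up more of the collagen-expressing cells in the mutant, 332 of 825 or 40.2% (36.9 to 43.7%), than in the control, 849 of 3336 or 25.4% (24.0 to 27.0%), log2 ratio 0.66 (0.47 to 0.85).

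Depth and sex moved with these shares. Among barcodes of at least 2000 UMIs members were 5.71% and 2.81% of kept barcodes, and 38.0% and 41.9% of collagen-expressing cells, log2 ratio 0.14 (-0.06 to 0.34). Among those of at least 5000 UMIs they were 9.32% and 4.92% of kept barcodes, and 48.0% and 42.3% of collagen-expressing cells, log2 ratio -0.18 (-0.39 to 0.03). The share of members among collagen-expressing cells was thus still higher in the mutant at 2000 or more UMIs and lower at 5000 or more, and both intervals included 0. For members with 4 or more markers the ratio was 0.31 (0.02 to 0.59) at 2000 or more UMIs, an interval above 0, and -0.11 (-0.41 to 0.18) at 5000 or more. The share of members among kept barcodes was lower in the mutant at each limit. Collagen-expressing cells were 15.02% and 6.69% of kept barcodes at 2000 or more UMIs, log2 ratio -1.17, and 19.4% and 11.6% at 5000 or more, log2 ratio -0.74. At 10000 or more they were 37.2% and 29.1%, log2 ratio -0.35. Members were 19.2% and 13.1% of kept barcodes at that depth, log2 ratio -0.55 (-0.79 to -0.31), against -0.92 at 5000 or more, so both differences were smaller in deeper barcodes. In the cells that held Xist but lacked Y-linked transcripts, members were 17.0% of kept control and 2.17% of kept mutant barcodes, log2 ratio -2.97. In the cells with Y-linked transcripts that lacked Xist they were 5.23% and 4.25%, log2 ratio -0.30 (-0.69 to 0.07). Within the Y-linked cells the interval thus included equal shares, and members with 4 or more markers were 2.35% and 2.46% there, log2 ratio 0.06 (-0.47 to 0.57). The part of sex, of the higher collagen background in the control, of dissection and of the number of retinal cells in these shares was not tested, and genotype cannot be told apart from the pool.

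**Figure D4:**
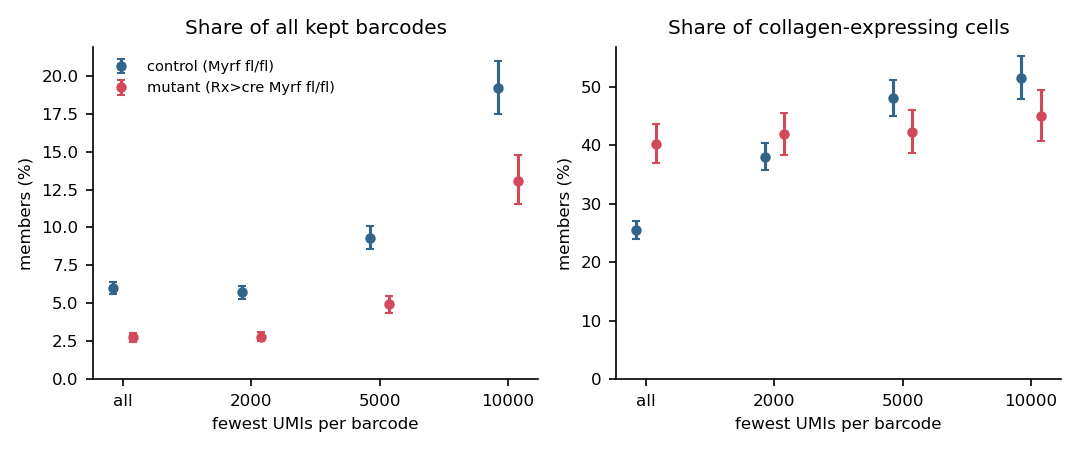
Members as a percent of kept barcodes (left) and of collagen-expressing cells (right) in the control (blue) and mutant (red) library, for all barcodes and for those of at least 2000, 5000 and 10000 UMIs; bars are exact Clopper-Pearson intervals. The left panel has the mutant below the control at every depth, and in the right panel the order turns between 2000 and 5000 UMIs.

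Inside the members, few genes differed by 2-fold or more between the genotypes in the main analysis. Of 11804 genes with at least 10 UMIs expected in each library, 33 (0.28%) were at least 2-fold higher in mutant members and 91 (0.771%) at least 2-fold lower. Both counts changed widely with the setting, among them equal weights for each cell and the split by sex, as given in the last section. The counting interval of the ratio lay above 0 for 885 genes (7.5%) and below 0 for 760 (6.44%), and the median log2 ratio was 0.00. None of the 18 broad fibroblast genes, 24 adventitial genes, 16 other collagens, 15 elastic fibre genes, 11 IGF genes, 17 WNT genes, 24 BMP and TGF beta genes or 35 mesenchyme factors measured here was past 2-fold, which is near the low share over all genes and not particular to these lists. Their medians ran from -0.08 for elastic fibre genes to 0.14 for adventitial genes. The 6 rule markers were not past 2-fold either, but members of both libraries were chosen on their counts. Osr2 had 142 CPM in control and 187 CPM in mutant members, Nov 225 and 295 CPM, Igf1 497 and 651 CPM, Igfbp6 971 and 692 CPM, and Dlk1 2655 and 3362 CPM. Eln was lower in the mutant by 0.34 on the log2 scale (-0.38 to -0.30), an interval that covers the counting of UMIs and not the spread between animals.

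**Figure D5:**
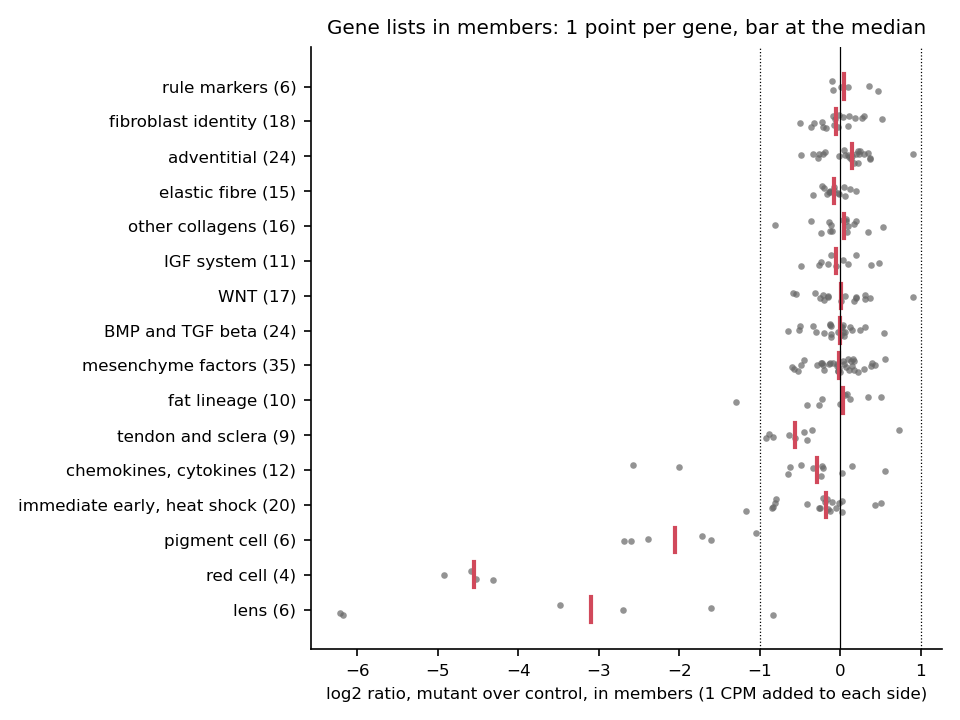
Each grey point is a gene and each red bar the median of its list; the horizontal axis is the log2 ratio of mutant over control members with 1 CPM added to each side, and dotted lines mark 2-fold. The lists from rule markers to mesenchyme factors lie within the dotted lines, while all 6 pigment cell and 4 red cell genes and 5 of 6 lens genes lie left of them.

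In 4 other lists 1 or 2 genes were past 2-fold, or the median lay away from 0. The shares over all genes were 0.28% higher and 0.771% lower in mutant members. Of 9 tendon and sclera genes 0 were past 2-fold, and the median was -0.56. Tnmd, a tendon membrane protein gene, had 176 CPM in control and 98.0 CPM in mutant members, and Tnc, tenascin C, 67.0 and 34.9 CPM, while Kera had 392 and 651 CPM. Within members of 4 or more markers Kera stood at 146 and 192 CPM. In the fat lineage list the median was 0.03 and 1 of 10 measured genes was past 2-fold. This was Fabp4, a fatty acid carrier of fat and capillary cells, which had 39.5 and 15.5 CPM, log2 ratio -1.30. It also stood at 131 CPM in control and 75.8 CPM in mutant barcodes under the collagen minimum. Of 12 chemokine and cytokine genes 2 were at least 2-fold lower. Cxcl13 had 15.1 and 1.72 CPM, but 1 control member held 98.2% of its UMIs. Ccl7 had 13.8 and 2.70 CPM, and 1 control member held 61.2% of them. Of 20 immediate early and heat shock genes, Hspa1b alone was past 2-fold at 64.8 and 28.3 CPM, and Junb had 143 and 79.1 CPM.

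By the interval bound nearest 0, the genes farthest from 0 on the lower side were crystallins, the structural proteins of lens, and globin. Cryga had 656 UMIs in control members and 0 in mutant members, at least 119-fold lower against a floor of 3 counts. Cryba1 had 549 and 0 UMIs and Cryaa 533 and 0. Cryge had 861 UMIs in control and 3 in mutant members. In the control 1 member held 44.8% of the Cryga UMIs, and for Cryge, Cryaa and Cryba1 the highest member held 42.7%, 33.2% and 30.2%. In barcodes under the collagen minimum Cryga stood at 164 CPM (control) and 0.064 CPM (mutant), so the difference was not particular to members. The alpha globin gene Hba-a1 had 3263 and 55 UMIs, and 1 control member held 80.6% of the control UMIs. In barcodes under the collagen minimum Hba-a1 differed little, at 2638 and 2205 CPM, log2 ratio -0.26. The list of 8 pigment cell genes summed to 230 and 38.8 CPM in members and to 1902 and 1110 CPM in barcodes under the collagen minimum. Of its 6 measured genes, 6 were lower in mutant members, with Pmel at 138 and 20.6 CPM. In members with 4 or more markers the list stood at 112 and 56.5 CPM. The part of free RNA or of adhering cells in these differences was not tested.

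On the higher side most of the named genes rested on few cells. Elobl had 0 UMIs in control members and 79 in 5 mutant members, of which 1 held 64.6%. Fgf21, a secreted metabolic hormone gene, had 42 UMIs in 15 control members and 146 in 13 mutant members, and 1 mutant member held 45.2% of the latter. Its mutant UMIs at depths of at least 5000 were all in members without Pi16. The phototransduction gene Gnb3 had 5.09 and 25.1 CPM and the cone opsin gene Opn1sw 4.69 and 18.9 CPM, with 68.8% of the mutant Opn1sw UMIs in 1 cell. Without the cells marked as doublets the ratio of Opn1sw turned from 1.81 to -1.26, and Elobl had too few UMIs to be compared. The nonagouti gene a, which encodes a signalling protein of hair and pigment biology, had 10.98 and 36.6 CPM, log2 ratio 1.65, and no cell held over 11.4% of its UMIs in either library. It was also higher in mutant cells with 0 markers and at least 2000 UMIs, 122 against 50.2 CPM. In members with 4 or more markers it stood at 4.94 and 2.90 CPM. The costimulatory receptor gene Cd40 (2.55 and 9.83 CPM) and the tektin gene Tekt2 (4.55 and 14.98 CPM) had ratios of 1.61 and 1.52 and were likewise higher in mutant cells with 0 markers, at 8.43 against 19.2 CPM and 17.3 against 42.9 CPM. Iigp1, an interferon-induced GTPase gene, had 1.47 and 9.09 CPM, with 43.2% of its mutant UMIs in 1 cell. A2m, at 132 and 260 CPM, was spread over 183 control and 30 mutant members, and among members with 4 or more markers it stood at 21.2 and 1.93 CPM, the opposite order.

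Cycling genes were present in both libraries. The list of 18 S phase genes summed to 647 CPM in control and 769 CPM in mutant members, and the list of 18 G2 and mitosis genes to 1336 and 1474 CPM. None was past 2-fold, which is near the low shares over all genes, 0.28% higher and 0.771% lower, and not particular to these lists. The median log2 ratios were 0.29 and 0.19. After thinning to 1000 UMIs, 14.4% of control and 13.9% of mutant members held at least 2 UMIs of the S phase list. For the G2 and mitosis list the shares were 30.5% (interval 27.4 to 33.8%) and 18.2% (14.2 to 22.9%), intervals that do not overlap. The mutant share was also lower at 2, 3 and 4 or more markers. The summed levels had the opposite order, so no order is read from these shares. Without thinning the G2 and mitosis shares were 72.3% and 72.6%. In 0-marker cells of at least 2000 UMIs the thinned shares were 26.3% and 13.8% for S phase and 38.6% and 17.2% for G2 and mitosis. No background share was set for these lists, and Top2a stood at 451 and 473 CPM in the progenitors. The part of free RNA in these shares was not tested.

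Transcripts of other cell types were also counted in members. Of the genes given above, Hba-a1 stood at 437 CPM in control and 13.5 CPM in mutant members, and Cryge at 115 and 0.737 CPM. The 10 myeloid genes summed to 13.3 and 2.70 CPM in control and mutant members, with Ptprc at 0 by the rule. The 10 endothelial genes summed to 152 and 135 CPM, where Tek made up 71.0 and 74.4 CPM. The 10 mural genes summed to 191 and 250 CPM. Progenitor genes of the retina summed to 372 and 400 CPM in members against 1311 and 484 CPM at 0 markers. The part of these transcripts in the results above was not tested.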

How the data were processed

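Eye cups were dissociated with papain and sequenced as 10x Genomics 3′ libraries, 1 per genotype. The authors counted reads on mm10, and the values deposited are unnormalized UMI counts for each gene and barcode. The submitters' processing notes name Cell Ranger 7.1.0 and Seurat 4.1.1, whereas the matrix headers name Cell Ranger 3.1.0. The annotation used for counting is not given in the sources used here. The total UMI counts of all barcodes were 79017429 (control) and 76272867 (mutant). Groups followed the genotype in the labels.

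Barcodes under 200 genes or above 15% mitochondrial UMIs were dropped. The study also states an upper limit of 2000 UMIs. It would have left 196 control and 18 mutant members and was used as an alternative only. Doublets were kept in the main analysis. Scrublet in scanpy 1.11.5, at an expected rate of 0.8% per 1000 barcodes, marked 1512 control barcodes (10.7%) and 1130 mutant barcodes (9.40%) for an alternative without them. Among members it marked 78 control cells (9.19%) and 59 mutant cells (17.8%).

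Within each library, UMIs were added up over the cells of a class and scaled to a total of 1000000 (CPM). Log2 ratios had 1 CPM added to each side, and genes were compared with at least 10 UMIs expected on each side. Intervals of ratios were exact conditional Poisson intervals without the added CPM, and shares had Clopper-Pearson intervals, all at 95%. A count of 0 was given a floor of 3 counts over the group. Computations used Python 3.11.15, numpy 2.4.6, scipy 1.17.1 and pandas 2.3.3, and were tested on simulated data. The members and the 43 gene lists were chosen with earlier results of these data known. Of the 523 genes in the lists 3 were not found among the 31053 features. Genes were named from the lists or as 12 in each direction of a comparison. Between genotypes these 12 had the interval bound nearest 0 farthest from it, sex-linked genes apart, so a named gene may lie under 2-fold. Between members and 0-marker cells they had the farthest ratio by the smaller of both libraries, with genes of the rule left out. The split by Pi16, the settings with at least 4 markers or 5000 UMIs and the filters on free RNA and single cells were added after the data had been seen.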

Additional observations from a re-analysis of the deposited data

Results flagged for a closer look

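For 5 genes the ratio of mutant over control was at least 2-fold in members and at least 2-fold the opposite way in collagen-expressing cells with 0 markers and at least 2000 UMIs, with both counting intervals clear of 0. Other genes turned by less, such as Col1a1, at 24215 and 21237 CPM in members and 25145 and 36628 CPM in the 0-marker cells. The difference between the classes of cells was not tested. These genes were Elobl (4.35 in members), Gnb3 (2.10), Opn1sw (1.81), Epha8 (1.20) and 1810041L15Rik (1.06). In the 0-marker cells the control and mutant levels of Elobl were 4.41 and 0 CPM, of Gnb3 48.6 and 21.8 CPM, of Opn1sw 17.7 and 7.93 CPM, of Epha8 31.7 and 6.27 CPM and of 1810041L15Rik 13.6 and 5.61 CPM. In barcodes under the collagen minimum Gnb3 stood at 104 and 149 CPM, Opn1sw at 32.9 and 41.3 CPM, Epha8 at 70.6 and 64.9 CPM and 1810041L15Rik at 26.9 and 29.2 CPM. For these 4 genes the level in members was thus below that in the barcodes under the collagen minimum in both libraries. Elobl UMIs in members came from 5 cells. Without the cells marked as doublets Elobl could no longer be compared and Opn1sw in members was -1.26, the direction it had in the 0-marker cells. With each cell weighted equally Opn1sw was -0.78.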

How the results depend on the processing

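No paired analysis was possible because there was 1 library per genotype. The log2 ratio of the share of kept barcodes, -1.12, was below 0 under every setting tried on all members, but for members with 4 or more markers it was 0.06 among Y-linked cells lacking Xist. For all members it was -0.90 with at least 3 markers, -0.92 at 5000 or more UMIs, -1.71 at up to 2000 UMIs, -2.97 among Xist cells lacking Y-linked transcripts, and -0.30 among Y-linked cells lacking Xist. The log2 ratio of the share of collagen-expressing cells, 0.66, was 0.89 with at least 3 markers, 0.27 and 1.01 with collagen minimums of 1% and 0.25%, 0.47 with a mitochondrial limit of 5%, 0.99 at up to 2000 UMIs, 0.041 after thinning to 2000 UMIs, 0.050 and 0.20 in the Xist and Y-linked cells, and reversed to -0.18 at 5000 or more UMIs. For members with 4 or more markers this ratio was 0.60 (0.09 to 1.11) in the Xist cells and 0.57 (0.03 to 1.07) in the Y-linked cells, intervals above 0. The 33 genes at least 2-fold higher in mutant members became 63 with at least 3 markers, 77 with at least 4, 51 with a collagen minimum of 1%, 20 at up to 2000 UMIs, 260 and 21 in the Xist and Y-linked cells, 5 with 10 CPM added, 76 with each cell weighted equally, 56 and 18 with 5 and 20 UMIs expected, 81 with no filter beyond 1 UMI, 7 among genes at or above their level under the collagen minimum, and 19 among genes with no cell over 20% of their UMIs. The 91 lower genes became 21 at up to 2000 UMIs, 158 after thinning to 2000 UMIs, 210 in the Y-linked cells, 26 with 10 CPM added, 393 with equal weights, 177 with no filter, 14 among genes at or above their level under the collagen minimum and 33 among genes with no cell over 20%. The 404 genes higher in members than in 0-marker cells became 24 at up to 2000 UMIs, 258 after thinning and 216 with 10 CPM added. These counts are not out of the same total. Between genotypes 11804 genes were compared in the main analysis and 248 at up to 2000 UMIs. After thinning there were 6191, at or above the level under the collagen minimum 3867, and with no filter 17657. The cause of the changes was not tested. Thinned to 2000 UMIs, the share of control and mutant members was 42.3% and 43.5% for Pi16, 21.1% and 20.3% for Dpt, 32.6% and 33.3% for Clec3b, 44.6% and 44.8% for Tnxb, 83.0% and 82.5% for Mfap5 and 16.4% and 19.7% for Ly6a, so the order of the libraries turned for Pi16, Clec3b and Tnxb. Of the named genes, 5 values with enough UMIs to be compared changed direction. The gene a stood at 4.94 and 2.90 CPM with at least 4 markers, also the opposite order. It had too few UMIs there to be compared and is not among the 5. Mt3, members over 0-marker cells, was 0.58 in the control at up to 2000 UMIs. Between genotypes Opn1sw was -1.26 without doublets and -0.78 with equal weights, and A2m was -0.91 after thinning and -2.92 with at least 4 markers. Between genotypes 104 values moved beyond counting error and 185 did not, and 67 could not be given because too few UMIs were expected. For members over 0-marker cells these numbers were 177, 485 and 57. A gene expected at under 10 UMIs in 332 mutant members was not compared.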
